A study of Mus musculus with 4 samples.

Results

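Liver-enriched transcription factors are the DNA-binding proteins that together hold the hepatocyte gene programme. The genes taken here were Hnf4a, Foxa1, Foxa2, Foxa3, Cebpa, Prox1, Nr5a2 and Rxra, and every array probe whose symbol in the platform annotation is one of these names was included. This gave 12 of the 25697 probes and 8 of the 16593 genes with a symbol on the array. Shp2, encoded by Ptpn11, is a tyrosine phosphatase through which growth factor receptors activate Ras and ERK. Total liver RNA was hybridised to Illumina bead arrays for 2 knockout samples, labelled Shp2hep-/-, and for 2 samples labelled WT Shp2Floxed/Floxed. The knockouts were positive for albumin-Cre, a transgene whose promoter is active in hepatocytes. Which other liver cells keep Shp2 was not examined. Floxed alleles of Shp2 are common to both groups, and the labels do not say whether any control carried Cre. All mice were 2 months old and had not been fasted; the labels name neither strain nor sex. The labels do not state how many mice gave each RNA, and the spread between arrays, on which every p-value rests, may be technical. The comparison asks whether the transcripts of these regulators differ in liver whose hepatocytes lack Shp2.

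As background, these factors form a network in which many members bind each other's genes. HNF4A is a nuclear receptor that binds DNA as a homodimer and is required for much of the differentiated hepatocyte programme. FOXA1, FOXA2 and FOXA3 share a forkhead DNA-binding domain and are known as pioneer factors, which can bind their sites in closed chromatin. C/EBP alpha is a basic leucine zipper factor of metabolic genes, PROX1 is a homeodomain protein that also acts as a corepressor of HNF4A and NR5A2, and RXRA is the obligate partner of many nuclear receptors. NR5A2, also called LRH-1, binds DNA as a monomer and is known in liver for its role at genes of bile acid synthesis and cholesterol transport.

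Sequences upstream of the annotated transcription starts were examined for binding motifs of the FOXA, nuclear receptor and C/EBP families and of HNF6, a further liver factor. All 8 genes had an entry, with 14 starts among them, in RefSeq coordinates of mouse build GRCm38.p6. Shown are the 250 bases before the start of Foxa1, the gene with the largest difference below 0, those before the upstream start of Nr5a2, the gene with the largest difference above 0, and those before both starts of Hnf4a, which lie 40298 bases apart and which a single probe represents. Each is written 5′ to 3′ on the gene's own strand, ending at the base before the start, and capitals mark a motif match.
Foxa1, chr12:57546112-57546361, minus strand: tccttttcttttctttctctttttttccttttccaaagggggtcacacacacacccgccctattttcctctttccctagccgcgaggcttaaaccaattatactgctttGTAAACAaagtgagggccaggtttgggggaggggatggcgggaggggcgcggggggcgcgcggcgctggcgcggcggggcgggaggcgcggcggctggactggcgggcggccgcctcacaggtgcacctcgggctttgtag
Nr5a2, chr1:136960449-136960698, minus strand: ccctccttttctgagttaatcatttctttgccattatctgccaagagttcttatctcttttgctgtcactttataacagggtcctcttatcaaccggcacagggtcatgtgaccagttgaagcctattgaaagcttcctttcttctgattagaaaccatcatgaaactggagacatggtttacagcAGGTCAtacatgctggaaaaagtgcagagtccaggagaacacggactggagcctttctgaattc
Hnf4a upstream start, chr2:163506607-163506856, plus strand: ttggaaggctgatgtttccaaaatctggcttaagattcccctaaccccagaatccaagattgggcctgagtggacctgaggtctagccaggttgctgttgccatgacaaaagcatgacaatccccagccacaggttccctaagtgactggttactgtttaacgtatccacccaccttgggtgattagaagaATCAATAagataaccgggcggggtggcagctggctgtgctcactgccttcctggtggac
Hnf4a downstream start, chr2:163546905-163547154, plus strand: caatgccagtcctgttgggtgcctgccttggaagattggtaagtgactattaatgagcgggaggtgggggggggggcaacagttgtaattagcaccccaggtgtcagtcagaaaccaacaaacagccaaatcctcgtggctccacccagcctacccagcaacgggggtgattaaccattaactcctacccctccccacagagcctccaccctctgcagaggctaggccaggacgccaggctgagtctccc
Both strands were searched for the FOXA letters TGTTTAC or TGTTTGC, the nuclear receptor half-site AGGTCA, the HNF6 letters TATTGAT, and the C/EBP letters TTGCGCAA or TTGCNNAAT, the last pair of which can overlap. The Foxa1 window held a FOXA match read on the opposite strand, beginning 141 bases before the start; such a match was present in 2 of the 14 windows of these genes and in 7.29% of all 32851 windows. The Nr5a2 window held a half-site 64 bases before the start, present in 2 of 14 windows and 14% of all. The upstream window of Hnf4a held an HNF6 match 59 bases before the start, in 2 of 14 windows and 1.86% of all. The downstream window of Hnf4a held none of these letters. No C/EBP match occurred in the 14 windows, against 2.23% of all windows. A match describes letters and not a bound site.

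Expression values are log2 intensities after background correction and quantile normalization, and a difference is knockout minus floxed control on that scale with its standard error (SE) from limma. The median scanner intensity was 242.2 and 256.6 units on the knockout arrays and 251.04 and 261.96 units on the control arrays, and 11809 to 12328 probes were detected above background in knockout against 11542 to 11990 in control. The number of arrays limits the precision. The targeted gene, Ptpn11, had log2 values of 11.38 and 11.56 in knockout against 12.75 and 12.85 in control, on the brightest of its 4 probes. This difference of −1.33 (SE 0.18) itself missed the adjusted threshold in limma's test (adjusted p = 0.0599), and the other 2 detected probes differed by −1.13 and −1.26. Whether the brightest probe lies in the deleted part was not analysed here. The defining hepatocyte genes Ttr, Apoa1, Serpina1b and Trf were detected on every array with log2 values between 15.69 and 16.05. Values this near the top of the normalized scale leave little room for a difference between groups. The 11 hepatocyte markers tested besides Alb, which include these genes, had a median difference of 0.00. The single probe of Alb, the gene for albumin, lay near background on all arrays and was detected on 2 of 2 knockout and 1 of 2 control arrays, so that it cannot serve as a hepatocyte marker here. All 4 arrays carry 1 chip number, with the groups at separate positions, and position and group cannot be told apart.

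Of the 8 factors, all were detected and 0 passed limma's test at an adjusted p under 0.05, where 0.795% of all 9311 tested rows passed. At an unadjusted p under 0.05 there was 1 gene, Foxa1, or 12.5% of the 8, against 16.5% of all rows. Differences were below 0 for 6 genes and above 0 for Nr5a2 and Cebpa, with a median of −0.32 and a range from −0.71 to 0.46. The median over all rows was 0.01, with 4716 rows above 0 and 4595 below. The knockout values did not overlap the control values for 5 genes, 62.5% of the 8, against 48.6% of all rows. In 4 of these, Hnf4a, Foxa1, Foxa3 and Rxra, both knockout arrays lay below both controls, as in 23.8% of all rows, and in Nr5a2 both lay above, as in 24.8% of all rows. In whole liver RNA, fewer cells of a type and less RNA per cell cannot be told apart.

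**Figure D1:**
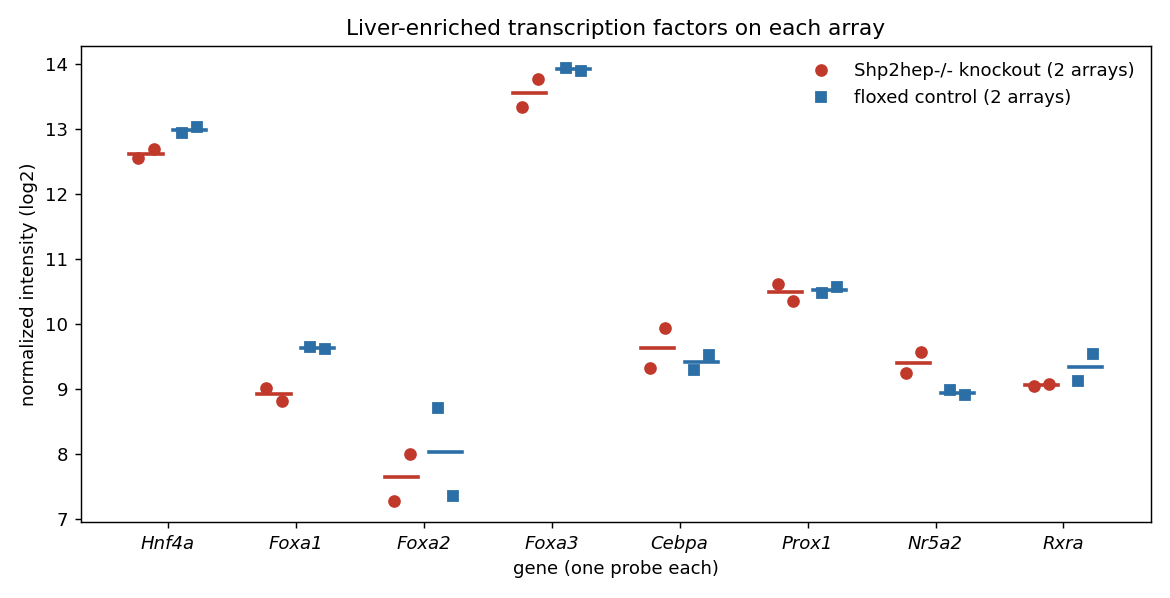
Normalized log2 intensity of the 8 factor genes on each array, with red circles for the 2 knockout arrays and blue squares for the 2 floxed control arrays, and a bar at each group mean. Foxa1 lies lower and Nr5a2 higher in knockout without overlap, while the control arrays of Foxa2 lie 1.37 apart; heights of different genes are not comparable.

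Among the nuclear receptors, Hnf4a had scanner intensities of 6241 and 6896 units in knockout and 8176 and 8616 units in control. Its log2 values were 12.55 and 12.69 in knockout and 12.95 and 13.04 in control. Each control exceeded each knockout, but the gaps within groups, 0.14 and 0.09, left a difference of −0.37 (SE 0.18, n = 2 per group) that did not pass limma's test (adjusted p = 0.392). The 95% interval of the knockout to control ratio ran from 0.564 to 1.06. A larger difference in size was found in 33.9% of all rows, so that Hnf4a stood in the ordinary range of these arrays.

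Nr5a2 was the factor with the largest positive difference. Its main probe gave 831.3 and 987.1 units in knockout and 709.04 and 648.5 units in control, or log2 values of 9.24 and 9.56 against 8.98 and 8.90. The difference was 0.46 (SE 0.20, limma adjusted p = 0.340), a ratio of 1.38 with a 95% interval of 0.97 to 1.96. It was 0.62 without knockout replicate 1 and 0.30 without knockout replicate 2. A further probe, dimmer but detected on all arrays, gave 7.12 and 7.20 in knockout against 6.80 and 6.68 in control. That probe again separated the groups, with a difference of 0.42 (SE 0.19, adjusted p = 0.376 in a fit over single probes). The remaining probe stayed at background level on all 4 arrays. Both detected probes report on the same RNA samples and are not replicates of the condition.

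Rxra, the shared dimer partner, gave 751.2 and 767.9 units in knockout against 762.2 and 901.5 units in control. On the log2 scale these were 9.04 and 9.08 against 9.12 and 9.54. The knockout arrays lay 0.03 apart and the controls 0.42 apart, and the nearest pair of opposite arrays differed by less than the controls did among themselves. The difference was −0.27 (SE 0.22, limma adjusted p = 0.595), with a ratio interval of 0.568 to 1.21. The difference was −0.48 without control replicate 1 and −0.06 without control replicate 2.

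The 3 forkhead genes all had a difference below 0. Foxa1, a factor also known for a part in sex-dependent gene control in mouse liver, had the largest difference of the 8. Its probe gave 743.9 and 672 units in knockout and 1007 and 937.8 units in control. The log2 values of 9.02 and 8.81 in knockout lay well apart from the 9.65 and 9.61 in control, where the pair differed by 0.04. The difference was −0.71 (SE 0.18), or 1.64-fold lower in knockout between the group means, and both knockout arrays lay below both controls. In limma's test the difference had an unadjusted p of 0.0104 and an adjusted p of 0.171. Its 95% ratio interval, 0.442 to 0.842, did not include 1, before any allowance for the number of rows tested. In size this difference exceeded that of 88.6% of all rows. With 1 array left out it ran from −0.82 to −0.61.

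Foxa2, which supports hepatic lipid and bile acid handling, was the most variable member. On its detected probe the knockouts gave 365.8 and 473.5 units, while the controls gave 623.8 and 360.6 units. The log2 values were 7.28 and 8.0 in knockout and 8.71 and 7.34 in control, so that the groups overlapped. The control arrays differed by 1.37, a gap larger than that of 98.9% of all rows, whose median gap was 0.22. The resulting difference of −0.39 (SE 0.50, limma adjusted p = 0.763) had a ratio interval from 0.318 to 1.83. Without control replicate 1 the difference turned to 0.29, and no direction can be given for Foxa2. Its other probe stayed at background level.

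Foxa3, a forkhead factor known to support expression of the glucose transporter gene Slc2a2 in mouse liver, gave 10589 and 13883 units in knockout and 16791 and 15366 units in control. The log2 values were 13.34 and 13.76 in knockout against 13.95 and 13.89 in control. Knockout replicate 1 lay furthest down, and knockout replicate 2 lay close beneath the controls. The difference was −0.37 (SE 0.22, limma adjusted p = 0.475), with a ratio interval of 0.531 to 1.13. It was −0.16 without knockout replicate 1 and −0.58 without knockout replicate 2.

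Cebpa gave 868.3 and 1222 units in knockout and 832.2 and 895.5 units in control. Its log2 values overlapped, at 9.32 and 9.93 in knockout against 9.29 and 9.53 in control. The difference of 0.22 (SE 0.26, limma adjusted p = 0.743) rested on knockout replicate 2 and was −0.087 without it. The ratio interval was 0.733 to 1.85.

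Prox1 differed least. On the brighter probe the knockout arrays gave 1832 and 1572 units and the control arrays 1618 and 1607 units, with log2 values of 10.61 and 10.36 in knockout and 10.47 and 10.57 in control. The knockout values lay on both sides of the controls, and the difference was −0.04 (SE 0.19, limma adjusted p = 0.953). A further probe, also detected on all arrays, differed by −0.03 (SE 0.26). The ratio interval of the brighter probe, 0.697 to 1.36, bounds a change in either direction but does not show that the groups were equal.

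**Figure D2:**
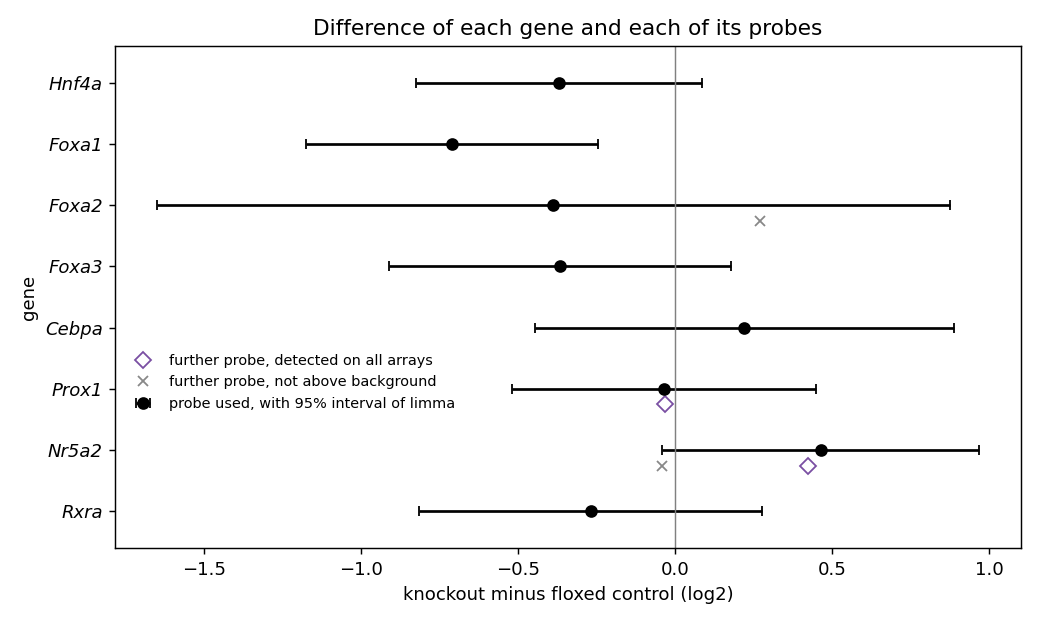
Difference of each gene, knockout minus floxed control in log2 units, as black points with the 95% interval from limma. Open diamonds are further probes detected on all arrays and crosses are further probes not above background. The interval of Foxa1 lies below 0 and those of the other 7 genes include 0, while the detected probe pairs of Nr5a2 and of Prox1 lie close together.

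Markers of other cell types were set beside these values, and no macrophage, matrix, red cell or hepatocyte marker passed limma's test, while 6, 3, 4 and 0 of them in that order were higher and 1 macrophage marker lower at an unadjusted p under 0.05. Among all rows 0.795% passed and 16.5% had an unadjusted p under 0.05, both directions together. Macrophage markers had 10 of 12 tested genes above 0 and a median difference of 0.79, and their summed level was 13140 to 14138 in knockout against 5531 to 9721 in control. Stellate and matrix markers had 9 of 9 above 0 (median 0.53, summed level 19383 to 19734 in knockout against 11366 to 16653 in control). Dcn and Reln supplied most of that sum. Reln is also among the endothelial markers below, so that the summed levels of these lists are not separate. Red blood cell markers had 4 of 4 above 0 (median 1.24, summed level 31440 to 32941 in knockout against 12163 to 19314 in control). Hepatocyte markers other than Alb had 5 genes above and 6 below 0, and their summed level was 405033 to 435901 in knockout and 415851 to 428127 in control. That sum is weighted to its brightest genes, such as Ttr, Apoa1, Serpina1b and Trf, which lie near the top of the scale. The part of these cell types in the differences of the 8 factors was not tested. Some of the factors are also made outside hepatocytes. FOXA1 and FOXA2 occur in bile duct cells, but of 9 cholangiocyte markers on the array only 3 could be tested. Krt19, Krt7, Cftr and Cd24a were above background on 0 arrays, and Tff2 and Cldn4 on 1 array each. The summed level of the tested cholangiocyte markers was 189 to 222 in knockout against 226.2 to 254.02 in control. PROX1 marks lymphatic endothelium, where Pdpn was undetected in control, and its knockout mean was at least 1.94-fold above the control level. Pdpn did not pass limma's test (adjusted p = 0.199), Lyve1 differed by −1.24 (SE 0.75) and Flt4 was detected on 0 arrays. The 12 tested endothelial and lymphatic markers had 6 genes on each side of 0, a median difference of 0.00 and summed levels of 17151 to 18731 in knockout against 11478 to 17902 in control. NR5A2 is abundant in pancreatic acinar cells, and of 10 acinar markers on the array 4 were tested. Ptf1a, Cpa1, Prss2 and Zg16 were detected on 0 arrays, and Ctrb1 and Cel on 1 array each. The summed level of the tested acinar markers was 997 to 1255 in knockout against 2696 to 2916 in control. The 4 tested acinar markers had 1 difference above and 3 below 0. Most of the summed level came from Cela1, an elastase gene, at 9.43 and 9.45 in knockout against 11.12 and 11.33 in control, which fell by 1.78 (SE 0.19, limma adjusted p = 0.0341). Another elastase gene, Cela2a, was at 7.44 and 7.72 in knockout against 6.97 and 6.13 in control (difference 1.03, SE 0.32, adjusted p = 0.220).

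The wider set of liver transcription factors held no called gene either, where 0.795% of all rows passed. The same share stands beside the lists that follow, and in lists this small a count of 0 lies near it. Of 36 listed genes 31 had a probe and 25 were tested; 0 passed in either direction in limma's test, 8 were above 0 and 17 below, and the median was −0.23. At an unadjusted p under 0.05 there were 2 higher and 6 lower of the 25, against 880 higher and 658 lower among all 9311 rows, together 16.5%. Knockout values lay below both controls for Nr1i3, the xenobiotic receptor CAR (10.69 and 11.01 in knockout against 11.74 and 11.56 in control, difference −0.80, SE 0.21, adjusted p = 0.171). Foxo1, a forkhead factor restrained by insulin, showed the same separation (9.53 and 9.73 in knockout against 10.42 and 10.38 in control, difference −0.77, SE 0.18, adjusted p = 0.154). Hlf, a PAR zipper factor, was undetected on both knockout arrays and passed the detection filter through the control arrays alone. Its control mean was at least 1.52-fold above the knockout level, and its difference did not pass limma's test (adjusted p = 0.181). In the other direction, Dbp, a clock-controlled factor of the same family, differed by 0.68 (SE 0.19, adjusted p = 0.189), Atf5 by 0.71 (SE 0.28) and Nr2f2 by 0.65 (SE 0.42). Nr1h4, the bile acid receptor FXR, overlapped between groups, with 13.36 and 13.12 in knockout against 13.33 and 13.40 in control. Onecut1, which encodes HNF6, was above background on 0 arrays, and Nr0b2, the corepressor SHP, on 1 array. As with Alb, a probe near background does not show that the transcript was absent.

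Nuclear receptors that pair with RXRA, together with the other RXR genes, included 1 called gene among 12 tested, where 0.795% of all rows passed. Pparg, the lipid-storage receptor, was at 10.46 and 10.26 in knockout and 8.73 and 8.83 in control, and rose by 1.58 (SE 0.19, limma adjusted p = 0.0441). The other 11 did not pass, and the list had 4 genes above and 8 below 0 with a median of −0.34. Rarb, a retinoic acid receptor, was at 6.09 and 6.23 in knockout against 7.20 and 7.63 in control (difference −1.26, SE 0.22, adjusted p = 0.0993). Nr1h3, the oxysterol receptor LXR alpha, was at 11.84 and 11.71 in knockout against 12.35 and 12.55 in control (−0.67, SE 0.19, adjusted p = 0.183). Rxrb differed by 0.26 (SE 0.19), Rxrg by 0.34 (SE 0.50) and Rara by 0.05 (SE 0.29). Both Rxrb arrays in knockout, 11.03 and 10.78, lay above the 10.60 and 10.69 of control, the opposite side to Rxra, though neither passed and the difference between the 2 genes was not tested.

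Coregulators that nuclear receptors recruit lay on both sides of 0, between −0.32 and 0.39. Of 10 tested genes 0 passed limma's test, and 0 had an unadjusted p under 0.05, against 16.5% of all rows. Of these genes 5 lay above and 5 below 0, and the median was 0.06. The largest differences were those of Ppargc1b, a coactivator of lipid genes (0.39, SE 0.25), and Prmt1, an arginine methyltransferase (−0.32, SE 0.24). Ep300 and Ncoa3 differed by 0.16 and 0.20, and Med1 and Sirt1 by −0.29 each.

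**Figure D3:**
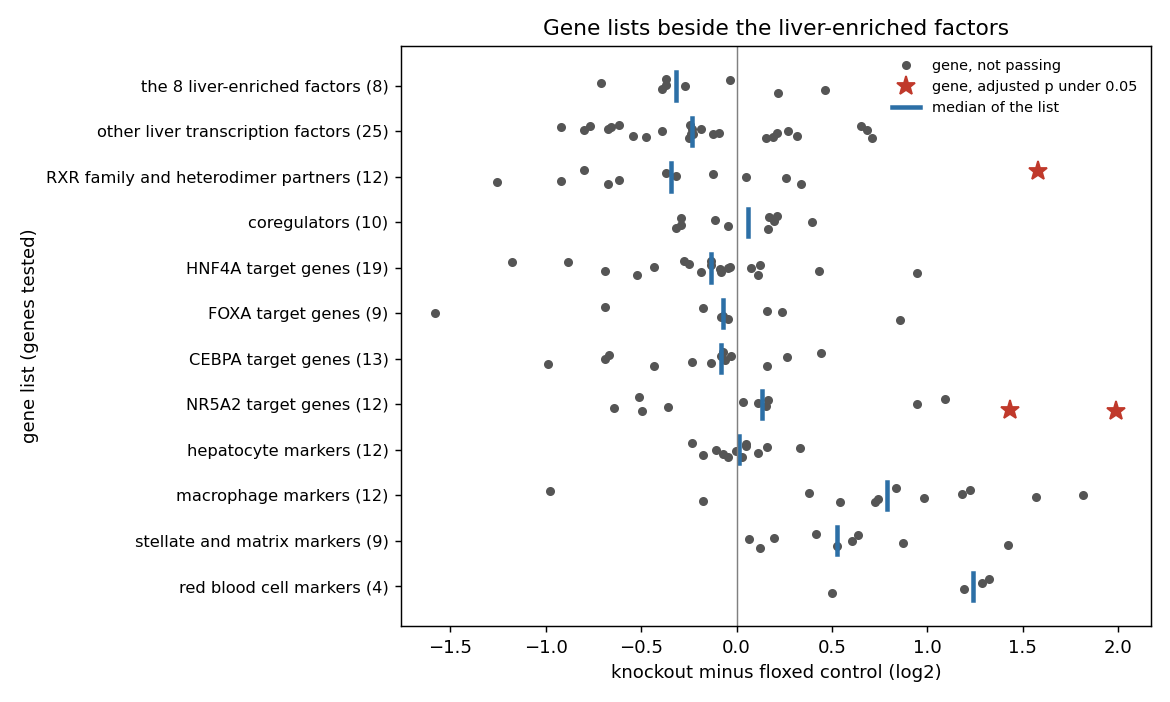
Differences, knockout minus floxed control in log2 units, of the tested genes of 12 lists, with the number tested in brackets, stars for genes with a limma adjusted p under 0.05 and a blue bar at each list's median. The 8 factors hold no star and have a median of −0.32; Pparg is starred among the RXR partners and Plk3 and Slc51b among the NR5A2 targets.

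Known target genes of the factors were then described, each list holding genes that other regulators share. Of 19 tested HNF4A targets 0 passed limma's test, with 5 above and 14 below 0 and a median of −0.13. At an unadjusted p under 0.05 there were 1 higher and 3 lower of the 19, against 16.5% of all rows in both directions together. The abundant apolipoprotein gene Apoc3 differed by −0.04 (SE 0.17). Cyp2d9, a male-biased cytochrome gene, was at 14.85 and 14.56 in knockout against 15.50 and 15.67 in control (−0.88, SE 0.20, adjusted p = 0.146). Pklr, the liver pyruvate kinase gene, was at 7.44 and 7.63 against 9.04 and 8.38 in control (−1.17, SE 0.27, adjusted p = 0.149). F7, the gene for coagulation factor VII, differed by −0.52 (SE 0.19). Apoa4 and Apoa2 differed by 0.43 and 0.13.

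Cyp8b1, the sterol 12-alpha-hydroxylase gene and a target of both HNF4A and NR5A2, was at 15.53 and 15.73 in knockout and 14.92 and 14.45 in control (0.94, SE 0.23, limma adjusted p = 0.161). Among 12 tested NR5A2 targets 2 passed, both higher, where 0.795% of all rows passed. Plk3, a polo-like kinase gene, was at 12.66 and 12.73 in knockout against 11.32 and 11.21 in control and rose by 1.43 (SE 0.18, adjusted p = 0.0482). Slc51b encodes a chain of the heterodimeric bile acid exporter of the sinusoidal side and is also a target of FXR. It was below detection on both control arrays and passed the detection filter through the knockout arrays alone. The mean of the knockout arrays was at least 2.56-fold above the control level, which lay under the detection limit. The limma adjusted p of 0.0482 belongs to the difference taken with the control values below detection. The other 10 did not pass, and 8 of the 12 lay above and 4 below 0, with a median of 0.13. Cyp7a1, the rate-limiting enzyme of bile acid synthesis, overlapped between groups, with 14.70 and 15.37 in knockout and 14.71 and 13.18 in control. On the other side were Apom (−0.64, SE 0.21), the sterol transporter gene Abcg8 (−0.51, SE 0.20) and the conjugate exporter gene Abcc2 (−0.49, SE 0.19). Slc10a1, the bile acid uptake transporter gene, differed by 0.15 (SE 0.22).

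FOXA targets had 9 tested genes, of which 0 passed limma's test. Of the 9, 1 had an unadjusted p under 0.05, against 16.5% of all rows. That gene was Abcb4, the canalicular phospholipid transporter, at 14.48 and 14.09 in knockout against 13.29 and 13.56 in control (0.86, SE 0.22, adjusted p = 0.174). The list had 3 genes above and 6 below 0 and a median of −0.07. Those above included Alb, whose probe lay near background. Slc2a2, the hepatic glucose transporter gene, was at 9.30 and 12.92 in knockout against 12.71 and 12.66 in control, so that 1 knockout array alone stood apart and the difference of −1.58 had an SE of 1.12. G6pc, the glucose 6-phosphatase gene, was likewise split within knockout, at 13.58 and 12.19, against 13.50 and 13.65 in control. Igfbp1 differed by 0.24 (SE 0.67) and Serpina1a by −0.17 (SE 0.21).

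C/EBP alpha targets had 13 tested genes, of which 0 passed limma's test. Of the 13, 2 had an unadjusted p under 0.05, both lower, against 16.5% of all rows in both directions together. Gys2, the liver glycogen synthase gene, was at 9.76 and 10.13 in knockout against 11.01 and 10.85 in control (−0.99, SE 0.21, adjusted p = 0.137). Hamp, the hepcidin gene, was at 14.43 and 14.67 in knockout against 15.29 and 15.15 in control (−0.67, SE 0.19, adjusted p = 0.194). Otc, a urea cycle gene, differed by −0.43 (SE 0.29), Cyp2a5 by 0.26 (SE 0.21) and Fasn by 0.44 (SE 0.45). The median of the list was −0.08, with 3 genes above, again including Alb near background, and 10 below 0.

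Over the 11 processing alternatives that kept all arrays, none of the 8 factors passed the adjusted threshold in limma's test. The difference of Foxa1 ran from −0.73 to −0.53 with adjusted p from 0.0667 to 0.249, and its unadjusted p was under 0.05 in 11 of 11. Alternatives of filter, probe rule or variance model left its difference as it was and changed only the p-value. For Nr5a2 the difference ran from 0.34 to 0.58 and the unadjusted p was under 0.05 in 2 of 11. Hnf4a lay between −0.38 and −0.34 and also had an unadjusted p under 0.05 in 2 of 11. The direction of Prox1 changed in 1 of these alternatives.

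**Figure D4:**
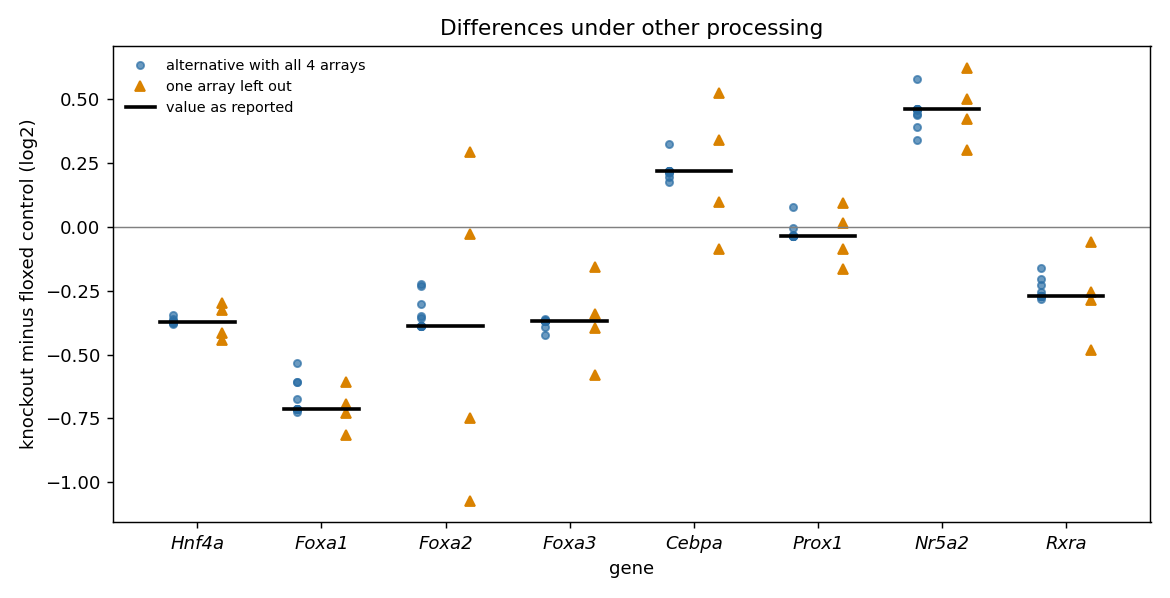
Difference of each factor gene, knockout minus floxed control in log2 units, as reported (black bars), under the 11 alternatives that kept all 4 arrays (blue circles) and with one array left out (orange triangles). Foxa1, Hnf4a, Foxa3 and Rxra stay below 0 and Nr5a2 above 0 throughout, whereas Foxa2, Cebpa and Prox1 lie on both sides of 0.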

How the data were processed

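Total RNA of 4 mouse liver samples was measured on Illumina bead arrays, from 500 ng of RNA amplified into biotin-labelled cRNA, per the labels' protocols. The deposited scanner table holds mean bead intensity on a linear scale and a detection p-value per probe, per the file headers; all arrays had the same mean intensity of 1186.5 units, so they had been scaled before deposit by a method the labels do not name. Text rows without a probe identifier, 4 in number, were left out. A further deposited table of processed intensity ranked the probes of each array as the scanner table did (Spearman correlation 1) and had medians of 31.58 to 31.63 units. Its values are linear, with the background and normalization methods unknown, and it served as an alternative.

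Scanner intensities were corrected and normalized with neqc of limma 3.58.1 (R 4.3.3), with an offset of 16. A probe passed with detection p under 0.05 on at least 2 of 4 arrays (12197 probes). The platform annotation named 1 symbol for 23978 probes, several for 0 and none for 1719. Where several probes of a gene passed, the brightest on average stood for it, giving 9311 rows, of which 8579 were genes and 732 probes with no symbol. Groups were compared with lmFit and eBayes, two-sided, with Benjamini-Hochberg adjustment over all rows. An exact permutation test of 2 arrays against 2 cannot give a p below 0.333. "At least N-fold" sets the brighter group's mean against the detection limit of the dimmer group's arrays, which is the lowest detected probe on each array or the probe itself if that is higher. A summed level adds the linear normalized intensities of a list's tested genes.

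The 8 genes and all gene lists were chosen with earlier results of these data known. Named are Ptpn11, the 8 factors with every probe, from each list of other factors, partners, coregulators and targets the called genes and up to 3 further genes in each direction with the smallest p, and Onecut1, Nr1h4, Nr0b2, Cyp7a1 and Cyp8b1; Apoc3, and all marker genes named, were chosen after their values were seen. Alternatives changed the normalization, background correction, offset, filter, probe rule, variance model and arrays used. One item of the naming rule is not reported here.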

Additional observations from a re-analysis of the deposited data

How the results depend on the processing

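Of 120 recomputed differences of the 8 factors, 115 kept their direction and stayed short of the adjusted threshold, 0 passed it and 5 changed direction. The alternative filters, the single-probe tests and the other variance model left each difference as it was, so its direction could not change there. The same held for the mean of passing probes in genes with 1 passing probe. Foxa2 was 0.29 without floxed control replicate 1, in a range of −1.07 to 0.29 over the arrays left out. Cebpa was −0.087 without knockout replicate 2 (range −0.087 to 0.53). Prox1 was 0.078 without quantile normalization, 0.013 without floxed control replicate 2 and 0.092 without knockout replicate 2 (range −0.16 to 0.092 over the arrays left out). The cause of these changes was not tested. With 1 array left out, a lone array is assumed to vary as the other group does. The number of rows called was 74, and became 321 without background correction, 214 from the deposited processed values, 160 with an offset of 50, 46 with every probe tested on its own and 367 with a trended, robust variance model; it was 0 to 27 with an array left out, being 0 without either knockout array, where 1179 and 1511 rows had an unadjusted limma p under 0.05. No paired analysis was possible because the labels number the knockout samples alone. Detection near background limits the second probes of Foxa2 and Nr5a2.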
